A study of Mus musculus with 15 samples.

Results

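The interferon response genes of 15 mouse liver tumors were followed over 3 groups, together with Xaf1, an interferon-inducible gene whose product antagonises the apoptosis inhibitor XIAP. Members were chosen by gene symbol alone, as every probe named for an Ifi, Oas, Oasl, Irf, Gbp, Irgm or Stat gene or for Isg15, Isg20, Usp18, Xaf1, Rsad2, Mx1, Mx2, Ddx58, Dhx58, Bst2, Cmpk2, Zbp1, Iigp1 or Igtp. This gave 115 of 55681 probes and 81 of 24239 gene symbols. The 3 groups were 5 hepatocellular carcinomas (HCC) from p53f/f mice, whose Trp53 alleles are floxed and intact, 5 HCC from p53LKO mice, which lack Trp53 in the liver, and 5 tumors of p53LKO mice labelled ICC, which stands for intrahepatic cholangiocarcinoma, the cancer of bile ducts within the liver. All mice were on a C57/BL6J background and were given CCl4, a liver toxin, intraperitoneally at 0.5 µl per g of body weight over 16 weeks, so that no group is free of the toxin. The text of the study describes the carcinomas of its HCC comparison as those of male mice without giving the sex for the ICC, starts the injections at an age of 6 weeks, and does not name the Cre driver. It gives ages at which mice were sacrificed, but no age for the tumors on the arrays. It reports that tumors formed later in p53f/f than in p53LKO mice. Age may therefore differ between the genotypes, and in a comparison with p53f/f HCC it cannot be told apart from genotype here.

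RNA was taken from whole tumor tissue, so tumor cells, stroma and infiltrating immune cells were measured together, and a lower value can mean fewer cells of a type or less RNA per cell, which cannot be told apart here. Each tumor had 1 array. Levels are log2 intensities relative to the 75th percentile of the array, so a level of 0 is that percentile and a difference of 1 is a doubling. Mouse 3717 contributed 2 of the p53f/f HCC, and mice 3731, 3733, 3976 and 5283 gave both an HCC and an ICC. The share of probes well above background ran from 37% to 70.1% over the arrays. The single Trp53 probe is annotated in the files to chromosome 17, whereas Trp53 lies on chromosome 11, so what it measures of the floxed gene is uncertain. It lay between -1.27 and -0.68 in the p53f/f HCC and between -4.19 and -2.31 in the 10 tumors of p53LKO mice. Of the labelled tumor types, ICC had 4 of 5 bile duct markers higher than p53LKO HCC, with the keratin gene Krt19 at 1.59 to 2.81 against -4.64 to -1.24. Of 6 hepatocyte markers 3 were lower, among them albumin (log2 fold change -1.91, adjusted p = 0.0086), while Cyp2e1 had 1.94 (adjusted p = 0.101).

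Type I and type III interferons are released by cells that detect foreign or displaced nucleic acid. Through their receptors and the kinases Jak1 and Tyk2 they activate transcription factors of the Stat and Irf families, which bind the interferon-stimulated response element in promoters and switch on antiviral effectors such as the Ifit, Oas and Mx genes. Interferon gamma acts through the gamma-activated site and is known above all for the guanylate-binding proteins (Gbp) and immunity-related GTPases.

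Promoters of 3 effectors whose values follow are shown with that of Xaf1, since the letters of the response element are plain in the effectors and were not found in the Xaf1 window. The sequences run 5′ to 3′ on the gene's strand over 280 bases, from 250 before the start to 30 after it, and are those of RefSeq on GRCm38.p6. In the first 3, capitals mark 2 copies of GAAA separated by 2 bases of any kind, the core of the interferon-stimulated response element, or the reverse complement. In Xaf1 they mark the shorter core AANNGAAA or its reverse complement, a motif that lies within the longer one and was chosen after the sequences were seen.
Isg15, chr4:156200789-156201068, minus strand: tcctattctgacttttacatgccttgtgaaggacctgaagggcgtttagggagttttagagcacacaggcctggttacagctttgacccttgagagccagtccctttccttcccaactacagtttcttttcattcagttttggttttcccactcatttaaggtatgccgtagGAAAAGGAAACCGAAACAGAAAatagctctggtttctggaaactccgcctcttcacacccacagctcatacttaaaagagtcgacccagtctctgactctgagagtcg
Ifit1, chr19:34640639-34640918, plus strand: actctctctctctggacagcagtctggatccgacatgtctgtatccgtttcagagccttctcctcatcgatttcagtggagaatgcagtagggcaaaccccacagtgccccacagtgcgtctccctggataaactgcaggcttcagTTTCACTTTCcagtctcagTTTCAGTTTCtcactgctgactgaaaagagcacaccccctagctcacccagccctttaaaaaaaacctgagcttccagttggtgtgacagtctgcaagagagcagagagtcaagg
Oas3, chr5:120777630-120777909, minus strand: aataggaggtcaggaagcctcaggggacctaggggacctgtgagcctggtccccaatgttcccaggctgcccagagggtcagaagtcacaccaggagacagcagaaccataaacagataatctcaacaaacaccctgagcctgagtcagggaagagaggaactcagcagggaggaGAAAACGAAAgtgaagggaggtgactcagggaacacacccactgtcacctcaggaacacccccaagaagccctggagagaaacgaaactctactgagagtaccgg
Xaf1, chr11:72301379-72301658, plus strand: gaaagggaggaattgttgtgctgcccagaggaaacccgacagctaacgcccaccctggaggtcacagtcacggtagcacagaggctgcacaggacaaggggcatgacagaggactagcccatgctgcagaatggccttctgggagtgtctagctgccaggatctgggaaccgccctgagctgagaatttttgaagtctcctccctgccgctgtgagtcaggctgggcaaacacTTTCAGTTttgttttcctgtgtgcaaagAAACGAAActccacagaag

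Isg15 held 3 overlapping matches, the outer ones at -78 and -66 relative to its start, Ifit1 held 2 and Oas3 held 1, while the 2 core matches of Xaf1 were at -17 and 11. Of the 81 genes, 59 had a promoter of 300 bases in the RefSeq table. Searched on both strands, that element was present for 26 of them (44.1%), against 3.99% of all 27025 genes with a promoter. The gamma-activated site TTCNNNGAA, which reads the same on both strands, was present for 16 (27.1%) against 9.55%, and AANNGAAA for 39 (66.1%) against 26.7%. A match is a string of letters and not a measured binding site.

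Between HCC of the 2 genotypes, 6 of 76 members tested changed. Of these, 4 were higher in p53LKO HCC, and all 4 were Oas or Oasl genes (Oas3, Oas1c, Oasl2 and Oas1e), whose products sense double-stranded RNA and, in the catalytically active forms, make the 2-5A messenger that activates RNase L. Another 2 were lower, the guanylate-binding proteins Gbp6 and Gbp5, each with 1 of its 2 probes. The higher count depends on the scaling, since spike-in probes gave 34 higher members beside 35% of all genes, with the median of all genes moving from 0.06 to 0.80, and leaving out any 1 tumor gave 5 to 6. A gene counts as higher or lower here at an adjusted p under 0.05 by limma's moderated test, adjusted over all probes, together with a fold change over 2. Among all 17774 genes tested in the same way, 5.19% were higher and 10.8% lower (16% in all), so the share of members that were higher was near that of all genes. The groups did not overlap for 7 members, against 19.4% of all genes. The median log2 fold change was 0.27 over the members and 0.06 over all genes.

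**Figure D1:**
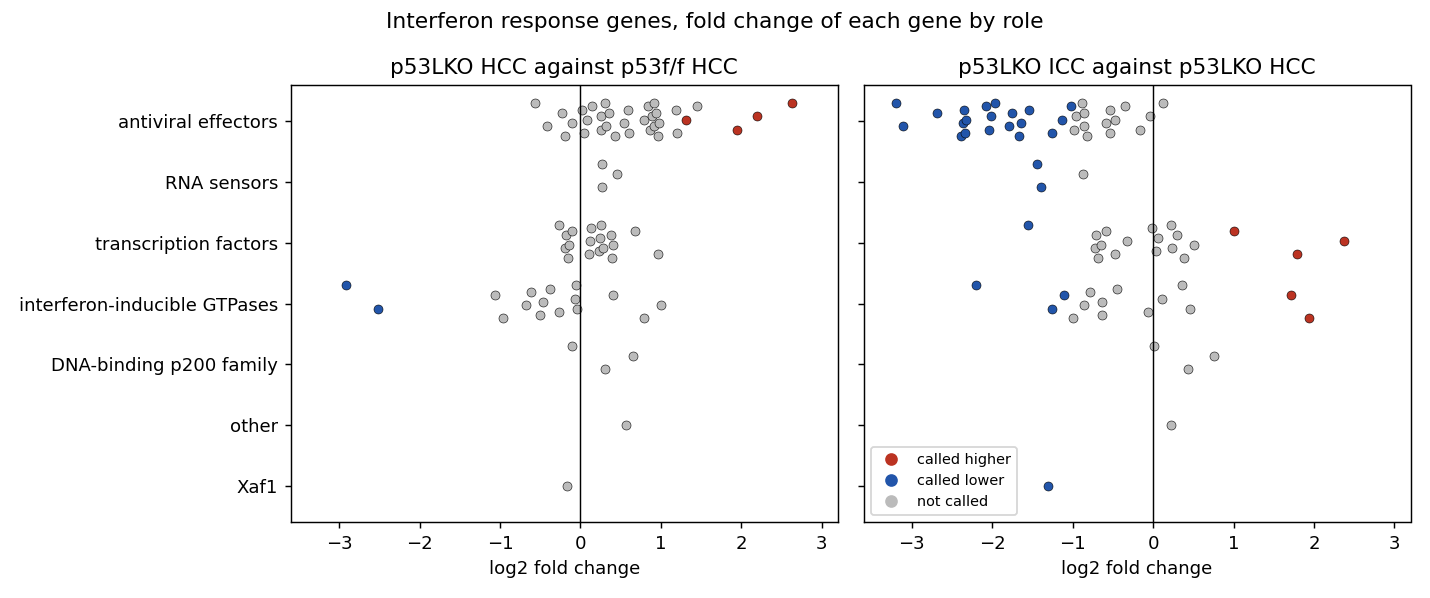
Log2 fold change of each tested interferon response gene, 1 point per gene, grouped by role, with p53LKO HCC against p53f/f HCC on the left and p53LKO ICC against p53LKO HCC on the right. Red and blue points passed the test (4 higher and 2 lower on the left, 5 higher and 27 lower on the right) and grey points did not; most antiviral effectors lie left of 0 on the right, while on the left those that passed lie right of 0. Scaled to spike-in probes, the median of the GTPases on the left turned from -0.42 to 0.32 and Xaf1 from -0.17 to 0.57.

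Oas3, the longest of the synthetases, lay at -3.87, -3.64, -4.04, -1.62 and -1.91 in the p53f/f HCC and at -0.76, -1.16, -0.28, 0.84 and -0.54 in the p53LKO HCC. Every p53LKO HCC was above every p53f/f HCC, although the 2 tumors of mouse 3717 came closest. The log2 fold change was 2.63 (SE 0.54, adjusted p = 0.00412), a 6.21-fold difference. Over 23 alternative settings it ran from 1.25 to 3.37 and the call held in each, so the size is less certain than the direction. Oas1c read -2.06, -0.01, 0.69, -1.55 and -0.18 in p53f/f HCC against 1.94, 0.92, 1.13, 1.90 and 1.93, again without overlap (2.19, SE 0.49, adjusted p = 0.00656). Oasl2, a member of the Oas-like branch, ranged from -0.13 to 2.34 in p53f/f HCC and from 2.79 to 4.43 in p53LKO HCC (1.95, SE 0.47, adjusted p = 0.00987). Oas1e was dim, was well above background on 5 and 4 of the 5 arrays, and overlapped between the groups (1.31, SE 0.37, adjusted p = 0.02). Its call was lost with the slide as a block (adjusted p = 0.0526) and with another background correction (log2 fold change 0.45).

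The Oas and Oasl family had 11 tested genes, and 10 of them had a log2 fold change above 0, with a median of 1.2. Those that did not pass included Oas2 at 1.45 (adjusted p = 0.0904), Oas1a at 1.20 (adjusted p = 0.111) and Oas1f at 1.19 (adjusted p = 0.116). Their p53f/f levels were widely spread, with Oas1a at 2.21 to 5.31. The probes that stand for Oas1a and Oas1g here match both genes in RefSeq, and the Oas1a probe that matches that gene alone had 1.17 (adjusted p = 0.129). The exception in direction was Oas1b, whose brightest probe had -0.19 and lay above 0 when scaled to the spike-in probes, but it is annotated to chromosome 6 and has no RefSeq match. The Oas1b probe that does match had -0.80 (adjusted p = 0.0356), under the fold limit. On the slide that held 4 p53f/f and 2 p53LKO HCC, the differences of Oas3, Oas1c and Oasl2 were 2.33, 2.16 and 2.08, and on the slide that held 1 and 3 they were 1.92, 1.84 and 1.08.

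Gbp6 and Gbp5, interferon-inducible GTPases of cell-autonomous immunity, were the opposite case. The brighter Gbp6 probe, at mm9 position chr5:105644259-105644318, lay at 3.53, 3.62, 2.64, 3.53 and 3.57 in p53f/f HCC and at 0.09, 0.12, 0.26, 1.40 and 0.42 in p53LKO HCC (log2 fold change -2.92, SE 0.29, adjusted p = 9.55e-05). The brighter Gbp5 probe, at chr3:142181426-142181485, lay between 2.35 and 2.68 in the first group and between -0.49 and 0.54 in the second (-2.52, SE 0.20, adjusted p = 8.21e-05). Both genes separated the groups on each slide. They have a second probe each, however, and those did not pass, with 0.52 for Gbp6 (adjusted p = 0.209) and -0.40 for Gbp5 (adjusted p = 0.266). The second Gbp6 probe also matches Gbp10 in RefSeq, and the brighter Gbp5 probe is annotated to a GenBank mRNA with no match in the RefSeq table. The Gbp10 probe, at chr5:105644753-105644812 beside the brighter Gbp6 probe, also matches Gbp6 in RefSeq and had -0.07 (adjusted p = 0.758). The falls of Gbp6 and Gbp5 therefore rest on 1 probe per gene.

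**Figure D2:**
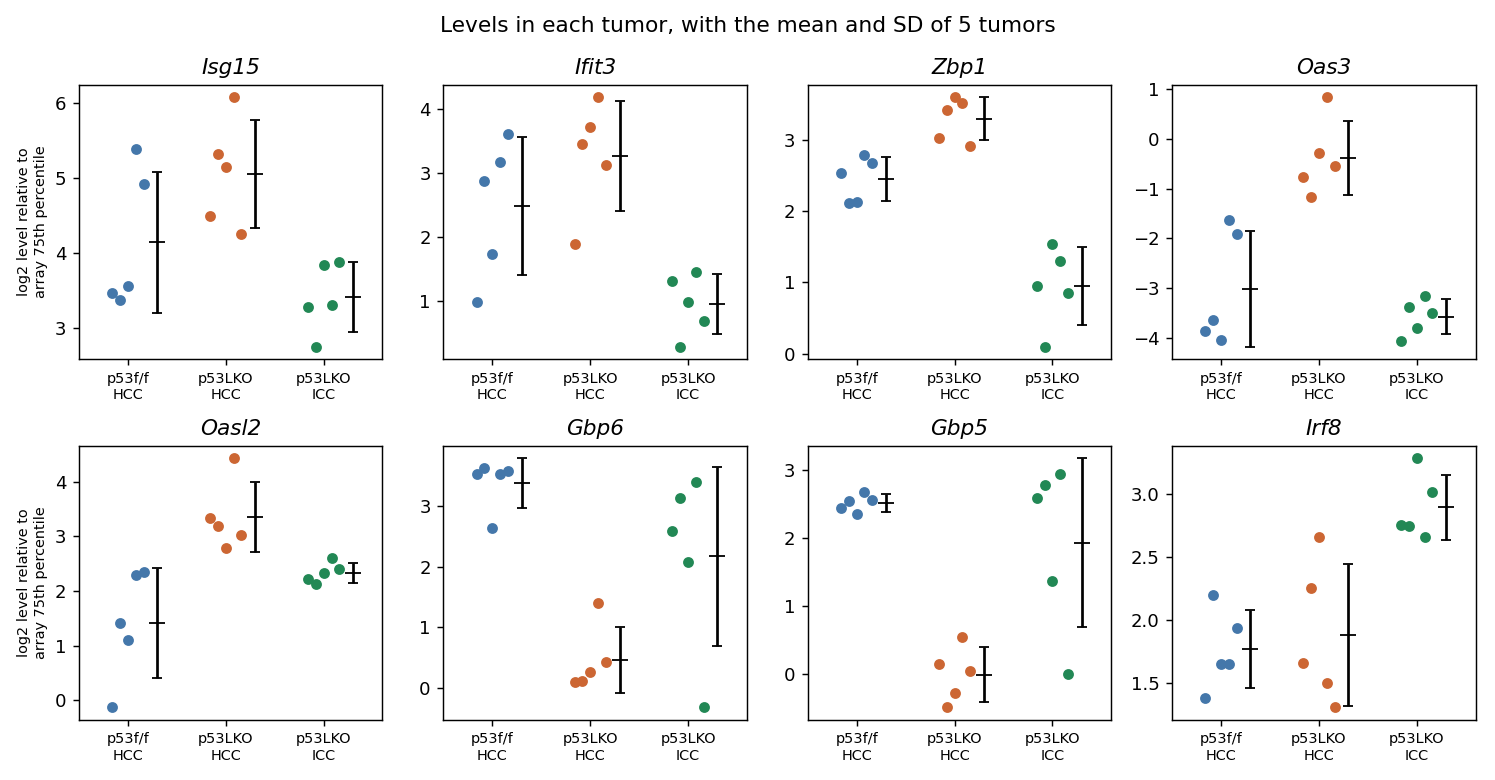
Levels of 8 interferon response genes in each tumor, as log2 intensity relative to the 75th percentile of the array, with 1 point per tumor and a bar for the mean and SD of 5 tumors; each panel has its own vertical scale. Isg15, Ifit3 and Zbp1 were lowest in ICC, Oas3 and Oasl2 were highest in p53LKO HCC, Gbp6 and Gbp5 were low in p53LKO HCC and in 1 ICC, and Irf8 was highest in ICC.

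The other roles had no member that passed between the HCC groups. Of 34 antiviral effectors, 29 had a log2 fold change above 0 and the median was 0.60, but apart from the 4 synthetases none passed. Isg15, the ubiquitin-like modifier, read 3.46, 3.37, 3.56, 5.38 and 4.91 in p53f/f HCC and 4.49, 5.32, 5.14, 6.07 and 4.25 in p53LKO HCC, and the groups overlapped (0.92, adjusted p = 0.154). The exonuclease gene Isg20 (0.98, adjusted p = 0.00513) and Zbp1, the sensor of Z-form nucleic acid (0.84, adjusted p = 0.0103), separated the groups but stayed under a fold change of 2. The GTPase gene Igtp reached 1.0 after rounding and did not exceed that limit (adjusted p = 0.029). For Ifit1, Ifit2, Ifit3, Usp18, Bst2, Mx1, Mx2, Cmpk2, Rsad2, Ifi27, Ifitm3 and Ifi44 the log2 fold changes ran from -0.23 to 0.89 and none passed.

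Several of these genes were spread within the p53f/f HCC more than between the groups. Ifi44 lay at -0.56, -1.67 and -0.67 in the tumors of mice 3681, 3715 and 3716 and at 2.49 and 2.50 in the pair of mouse 3717. Mx1, a dynamin-like antiviral GTPase, was at -1.51 in the tumor of mouse 3681 and between 1.01 and 2.20 in the other 4. The RNA sensors Ddx58 (RIG-I), Ifih1 (MDA5) and Dhx58 (LGP2) had log2 fold changes of 0.27 to 0.45, and none of the 18 transcription factors passed, a group that by its symbols takes in the 3 Irf2-binding proteins. Irf1, Irf7, Irf8, Irf9 and Stat2 were at 0.12, 0.39, 0.11, 0.38 and -0.10. Ifi202b, Ifi44l, Ifitm10 and Oas1h passed the background filter in no comparison, Irf4 not in that of the HCC groups and Gbp2b not in that of the p53LKO tumors, and these genes were left untested there.

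Against p53LKO HCC, ICC had lower interferon response genes across most effectors. Of 76 members tested, 27 were lower and 5 higher, which is 35.5% lower, beside 15.2% lower and 13.2% higher (28.4% in all) among all 16891 genes. Leaving out any 1 tumor gave 3 to 4 higher members, with 3 without either tumor of mouse 3976 or the HCC of mouse 3975. The median log2 fold change was -0.71 over the members and -0.17 over all genes, and the groups did not overlap for 34 members, against 30.8% of all genes. The same HCC arrays enter this and the previous comparison, so a gene that happened to be high in those 5 tumors shows in both. The falls lay with 20 of 34 antiviral effectors (median -1.40), 2 of 3 RNA sensors, 3 of 15 GTPases, 1 of 19 transcription factors and Xaf1. None of the 3 p200 genes tested passed.

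A core of 15 genes that type I interferon is known to induce in many cell types (Isg15, Usp18, Rsad2, Mx1, Mx2, Cmpk2, Ifit1, Ifit2, Ifit3, Ifi44, Oas1a, Oas2, Oasl1, Oasl2 and Irf7) had a negative log2 fold change throughout, under each of the scalings tried, with a median of -1.76, and 12 of the 15 passed. The number that passed was 10 with quantile normalization and 9 with the 75th percentile over probes well above background on all arrays. Ifit3, which binds foreign RNA together with Ifit1, read 1.89, 3.45, 3.71, 4.18 and 3.13 in p53LKO HCC and 1.32, 0.29, 0.99, 1.45 and 0.69 in ICC (-2.33, SE 0.40, adjusted p = 0.00112). Zbp1 read 3.02, 3.42, 3.59, 3.51 and 2.91 against 0.95, 0.10, 1.54, 1.3 and 0.85 (-2.34, SE 0.27, adjusted p = 0.000141). Neither gene overlapped between the tumor types. Isg15 lay between 2.75 and 3.88 in ICC, below every p53LKO HCC (-1.64, SE 0.35, adjusted p = 0.00379).

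Further falls without overlap were those of Cmpk2, a nucleotide kinase (-2.35), Ifit1 (-2.08), Ifi27 (-2.04), Usp18, the protease that removes Isg15 (-2.02), Mx1 (-1.96), Oas1a (-1.76), Bst2, which tethers budding virus (-1.54), and Ifitm3, which blocks viral entry (-1.26), with adjusted p between 0.000407 and 0.00359. Rsad2 (viperin) fell by 1.79 on the log2 scale (adjusted p = 0.0219) and Oas2 by 1.13 (adjusted p = 0.0216), both with overlap. Those calls, and that of Oasl2 at -1.02 (adjusted p = 0.0137), were each lost in at least 7 of 22 alternative settings. The call of Ifitm3 was lost in 2 of the 22, quantile normalization and the 75th percentile over probes well above background on all arrays. Mx2 (-0.86), Ifit2 (-0.89) and Ifi44 (-0.82) did not pass. Leaving out 1 tumor at a time gave 24 to 32 lower members.

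Oas3 was not well above background on any ICC array, so its fall against p53LKO HCC is given as at least 5.06-fold, with measured means of -0.38 ± 0.75 in p53LKO HCC and -3.58 ± 0.35 in ICC (SD, n = 5; adjusted p = 9.85e-05 by limma). That bound depends on the processing, since over 22 alternative settings the log2 fold change of Oas3 ran from -3.41 to -1.71, with the call kept in each. Oas1e, also not well above background in ICC, fell at least 1.61-fold. Ifi27l2b (-3.11, 8.63-fold), Oas1c (-2.69) and Oasl1 (-2.39) fell as well. Of the 11 Oas and Oasl genes, 8 were lower and the median was -1.67. The double-stranded RNA sensors Dhx58 (-1.44, adjusted p = 0.000289) and Ifih1 (-1.40, adjusted p = 0.000428) fell, while Ddx58 had -0.87 (adjusted p = 0.00505), under the fold limit, and was without overlap as well.

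A smaller group of members went the other way. Irf4 and Irf8, transcription factors best known from lymphoid and myeloid cells, and Stat4, which acts below the interleukin-12 receptor, were higher in ICC. Irf8 lay at 2.75, 2.74, 3.28, 2.66 and 3.01 in ICC and at 1.66, 2.25, 2.66, 1.5 and 1.31 in p53LKO HCC (1.01, SE 0.27, adjusted p = 0.0109), so that the lowest ICC met the highest HCC, and the call was lost in 10 of 22 alternative settings. Irf4 had 2.37 (adjusted p = 0.00111) and Stat4 1.79 (adjusted p = 0.00355), without overlap. Both were dim, with Irf4 well above background on 2 and Stat4 on 3 of the 5 p53LKO HCC arrays, so the sizes are uncertain, and with normexp background correction they were 0.94 and 0.87, under the fold limit. Irf7, the factor that interferon itself induces, was the transcription factor that fell (-1.56, adjusted p = 0.00184), with -0.84 to 0.77 in ICC and 1.21 to 2.16 in p53LKO HCC. Irf1 (-0.33), Irf9 (-0.69) and Stat2 (-0.02) did not pass.

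Among the GTPases, Igtp (-2.20, adjusted p = 0.000982), Iigp1 (-1.26) and Irgm2 (-1.11) fell, and Irgm1 reached -1.0 without passing the fold limit (adjusted p = 0.00944). The calls of Iigp1 and Irgm2 did not hold in 3 of 22 alternative settings each, among them quantile normalization (-0.93 and -0.82) and the 75th percentile taken over the probes that every array measured well above background (-0.89 and -0.74), both under the fold limit. The third was the lower slide rows alone for Iigp1 (-1.03, past the fold limit but not the adjusted p) and leaving out the ICC of mouse 3733 for Irgm2 (-0.96). Gbp5 and Gbp6 rose by 1.94 (adjusted p = 0.0113) and 1.72 (adjusted p = 0.0411) with the brighter probes, and the call of Gbp6 did not hold in 15 of 23 alternative settings. That of Gbp5 did not hold in 4 of 23, the slide row as a block, the lower slide rows alone, the methods' t-test and its other probe. The ICC values of both genes were uneven, with 2.58, 2.77, 1.37, 2.94 and 0.00 for Gbp5 and 2.59, 3.13, 2.08, 3.39 and -0.32 for Gbp6. In both cases the last value, that of the ICC of mouse 5283, was at the level of the HCC. The second probe of Gbp6 went the opposite way and passed (-1.65, adjusted p = 0.00183), and that of Gbp5 did not pass (0.54, adjusted p = 0.185). Gbp2 had 0.46 (adjusted p = 0.353).

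The rest of the GTPases and the factors moved little. Gbp9 (-0.86) and Gbp10 (-0.79) were lower in every ICC than in every p53LKO HCC, at -1.27 to -0.93 against -0.51 to 0.20 for Gbp9, but under the fold limit, and the Gbp10 probe matches Gbp6 as well. Gbp3, Gbp4, Gbp7, Gbp8, Gbp11 and Ifi47 ran from -0.64 to 0.36 and none passed. The p200 genes Ifi203, Ifi204 and Ifi205, whose family binds DNA, had 0.43, 0.01 and 0.76. Irf3, the factor that starts interferon production, had -0.59, with 3.68 to 4.18 in ICC and 4.13 to 4.69 in p53LKO HCC, and Stat3, Stat5a, Stat5b and Stat6 ran from -0.71 to 0.39. Of the membrane proteins of the Ifitm family, Ifitm3 fell, while Ifitm1 (-0.16), Ifitm2 (-0.54), Ifitm5 (0.12), Ifitm6 (-0.86) and Ifitm7 (-0.59) did not pass. Ifi27l2b and Ifi27 fell, and Ifi27l2a, of the same family, had -0.04 (adjusted p = 0.912).

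The falls in ICC went along with a different make-up of the tissue. Summed on the linear scale and then logged, 6 hepatocyte markers ranged from 9.29 to 10.58 in ICC and from 10.83 to 11.3 in p53LKO HCC, with 3 of 6 lower, and 5 bile duct markers ranged from 6.03 to 7.15 against 2.11 to 3.3. Of the fibroblast markers, 2 of 5 were higher (6.18 to 7.14 against 3.65 to 5.97). Immune markers were mixed. B cell genes had 2 of 4 higher, and of 3 dendritic cell markers tested only Itgax passed (2.11). Of 6 T and natural killer cell markers tested, Cd3g was higher by 1.84 and Cd4 lower by 2.76. The other 4 lay below 0 and did not pass, among them Cd3e at -0.57 (adjusted p = 0.0251). None of 6 macrophage markers passed, and the pan-leukocyte gene Ptprc had 0.56 (adjusted p = 0.0761). The summed T and natural killer cell markers lay at 3.69 to 4.6 in ICC and at 5.21 to 6.73 in p53LKO HCC, where the sum followed mainly Cd4. Ncr1 and Xcr1, which define natural killer cells and a dendritic subset, were not well above background on any array. The part of these cells in the values of Irf4, Irf8, Stat4, Xaf1 and the effectors was not tested.

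Between the HCC groups the markers were mixed. None of 6 hepatocyte and none of 6 macrophage markers passed, and Ptprc had 0.11 (adjusted p = 0.749). The neutrophil genes S100a8 (1.84) and S100a9 (2.10) were higher in p53LKO HCC and Csf3r (-1.55) was lower, and the summed list, at 6.96 to 7.41 against 8.14 to 8.56 in p53f/f HCC, followed the bright Csf3r probe and not the other 2. That probe is annotated to chromosome 19, which is not the chromosome of Csf3r, so what it and the sum measure is uncertain. The dendritic markers Siglech (-1.02) and Flt3 (-1.79) were lower and Itgax, the other dendritic marker tested, had 0.73 (adjusted p = 0.134), with sums, set by Siglech, of 6.79 to 7.43 against 7.97 to 8.19. Of 4 endothelial markers Stab2 was lower (-1.17, adjusted p = 0.027). The part of these cells in the falls of Gbp5 and Gbp6 was not tested.

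The position of the arrays was not the same for the groups. All ICC arrays and 2 p53LKO HCC lay in a lower slide row, where 37% to 47% of probes were well above background, and the other HCC lay in an upper row. Within the lower rows alone, 2 HCC against 5 ICC, 25 members were lower and 2 higher, beside 11.9% and 9.59% of all genes. With the row as a block 26 were lower, beside 13.2% of all genes, and Xaf1 fell by 1.17 on the log2 scale (adjusted p = 0.0347). Without the 2 HCC of the lower rows, 6 members were higher and 2 lower in p53LKO against p53f/f HCC, where 4.48% of all genes were higher, and all 6 calls named above were made again.

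The 4 mice that carried both tumor types give the comparison within an animal. In mice 3731, 3733 and 5283 all 15 core genes were lower in the ICC than in the HCC of the same mouse, with medians of -1.86, -2.87 and -1.46. In mouse 3976 it was 14 of 15, with a median of -1.01. Over all 76 members the counts were 63, 62 and 62, and 45 in mouse 3976. The median over all genes was between -0.19 and -0.13 in these pairs. Gbp5 was higher in the ICC by 2.86, 2.23, 1.22 and 0.49 in mice 3731, 3733, 3976 and 5283, whereas Gbp6 was higher in 3 pairs (2.33, 1.73 and 1.98) and lower in mouse 5283 (-0.44). With the mouse as a replicate block, over 8 tumors, 30 members were lower and 3 higher, beside 13.8% and 11% of all genes, and the rises of Irf8 and Gbp6 no longer passed.

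**Figure D3:**
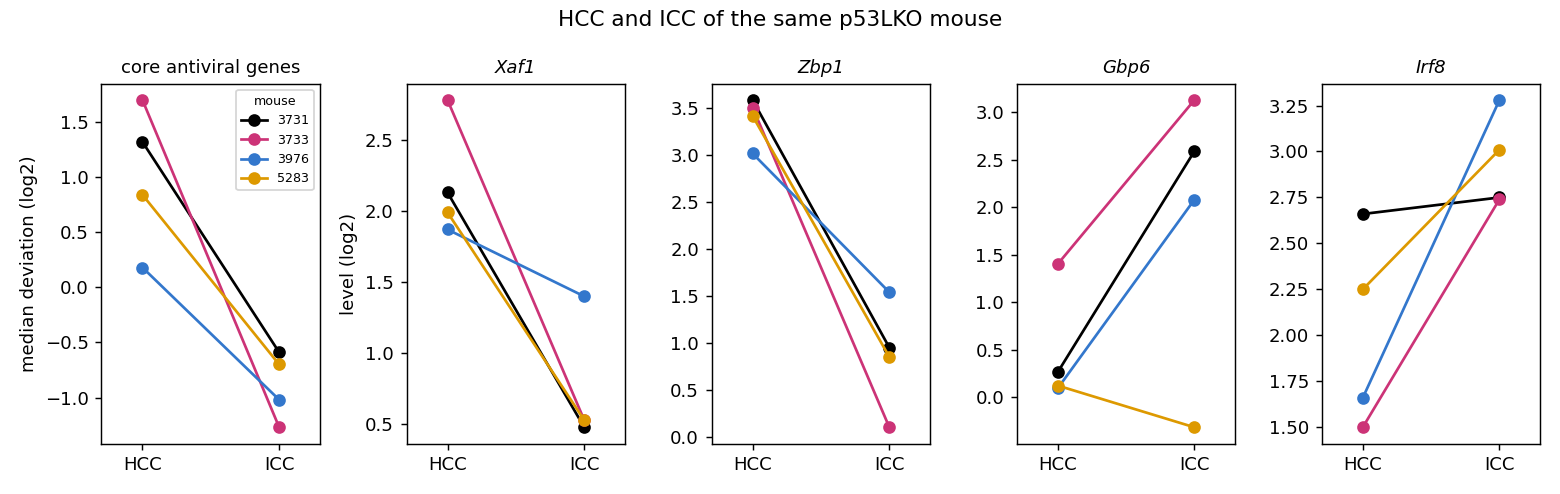
The HCC and the ICC of the 4 p53LKO mice that had both, with 1 line per mouse. The core antiviral genes, given as the median of 15 deviations from each gene's own median over all tumors, the brighter Xaf1 probe and Zbp1 (log2 levels relative to the 75th percentile) went down from HCC to ICC in all 4 mice, Irf8 went up, and Gbp6 went up in 3 and down in mouse 5283; each panel has its own vertical scale.

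Xaf1 has 2 probes on the array, both well above background on all 15 arrays and both matching only Xaf1 in RefSeq. They lie on the plus strand of chromosome 11 in mm9, and are called here the upstream probe, the brighter of the 2, and the downstream probe, by their order along the transcript. Their sequences are shown because they gave different answers for the genotype, the second as its first 30 of 60 bases.
Xaf1, upstream probe, chr11:72122169-72122228: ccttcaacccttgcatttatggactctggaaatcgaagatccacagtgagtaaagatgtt
Xaf1, downstream probe, chr11:72127175-72127234: tctgtatttctggaccacagtcactcattt

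With the upstream probe, Xaf1 lay at 0.80, 2.45, 2.59, 2.66 and 2.70 in p53f/f HCC, at 1.87, 1.99, 2.13, 2.78 and 1.57 in p53LKO HCC and at 0.48, 0.53, 1.40, 0.87 and 0.53 in ICC. The means were 2.24 ± 0.81, 2.07 ± 0.45 and 0.76 ± 0.39 (SD, n = 5). The 2 HCC groups overlapped and did not differ beyond their spread (-0.17, SE 0.37, adjusted p = 0.756; exact permutation p = 0.722, two-sided). ICC was below p53LKO HCC without overlap (-1.31, SE 0.26, adjusted p = 0.00244), with the exact permutation p at 0.00794, the smallest that 5 tumors against 5 can give. With the 75th percentile over probes well above background on all arrays it was -0.94 (adjusted p = 0.0128), under the fold limit. ICC was also below p53f/f HCC (-1.48, SE 0.37, adjusted p = 0.0111), where the tumor of mouse 3681 overlapped, but scaling to spike-in probes gave -0.73 (adjusted p = 0.235) and ended this call.

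With the downstream probe, the p53f/f HCC fell apart into 1 tumor at 2.29, that of mouse 3681, and 4 tumors at -3.02, -3.33, -3.24 and -3.69. The p53LKO HCC were at 3.45, 3.63, 3.78, 4.06 and 3.23 and the ICC at 2.34, 2.04, 2.86, 2.62 and 2.34. Against p53LKO HCC the ICC were lower by nearly the same amount as with the upstream probe (-1.19, SE 0.21, adjusted p = 0.00134). Between the genotypes the downstream probe passed with a log2 fold change of 5.83 (SE 0.98, adjusted p = 0.0013), where the upstream probe had -0.17. The same gap stood between ICC and p53f/f HCC, at 4.64 with one probe and -1.48 with the other. The Trp53 probe, with the uncertainty given above, read -0.76 in the tumor of mouse 3681, within the p53f/f values. Within 1 Mb of Xaf1 on either side, 31 genes were tested between the HCC groups, 2 were higher and 2 lower, and their median was -0.03.

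**Figure D4:**
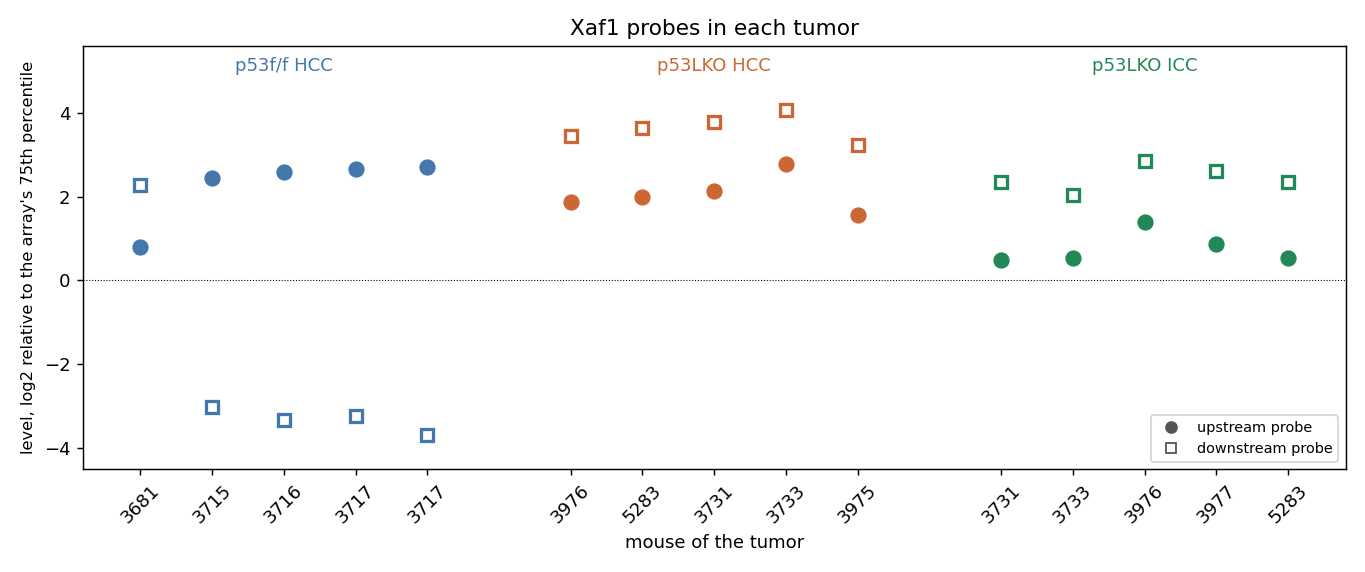
The 2 Xaf1 probes in each of the 15 tumors, named by mouse, as log2 intensity relative to the 75th percentile of the array; filled circles stand for the upstream probe and open squares for the downstream probe. The height of one probe cannot be set against that of the other; the circles of 4 p53f/f HCC (2.45 to 2.70) lie within the range of p53LKO HCC (1.57 to 2.78), whereas the squares of those 4 p53f/f HCC lie between -3.69 and -3.02 and every other square lies above 2.

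Whether Xaf1 followed the other members was read tumor by tumor, as a description with no test. The HCC of mouse 3733 ranked first of 15 both for the core genes and for the brighter Xaf1 probe. The lowest 6 tumors by Xaf1 were the 5 ICC and the p53f/f HCC of mouse 3681, and the same 6 tumors were the lowest by the core genes. In the tumor of mouse 3681 the core deviation was -0.84 (rank 13) and Xaf1 ranked 12. Within the p53LKO HCC, Xaf1 ran in the order of the core genes, with the core median at 1.70, 1.32, 0.84, 0.18 and 0.16 for Xaf1 at 2.78, 2.13, 1.99, 1.87 and 1.57.

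The order differed elsewhere. The p53f/f HCC of mouse 3716 ranked 4 by Xaf1 and 9 by the core genes, and the ICC of mouse 3976 ranked 10 and 14. In 4 p53f/f HCC Xaf1 lay at 2.45 to 2.70, above every p53LKO HCC but that of mouse 3733, while their core deviations ran from -0.32 to 1.03 against 0.16 to 1.70. The downstream probe ran in the order of the core genes in the p53LKO HCC. It did not in the ICC, where the tumor of mouse 3976 was highest at 2.86 with a core deviation of -1.02, nor did it follow them in those 4 p53f/f HCC. From HCC to ICC of the same mouse, the difference of Xaf1 was -1.65, -2.26, -0.48 and -1.46 in mice 3731, 3733, 3976 and 5283, and -1.44, -2.02, -0.59 and -1.29 with the downstream probe. Mouse 3733 had the most negative difference of Xaf1 and of the core genes, and mouse 3976 the least negative of both.

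**Figure D5:**
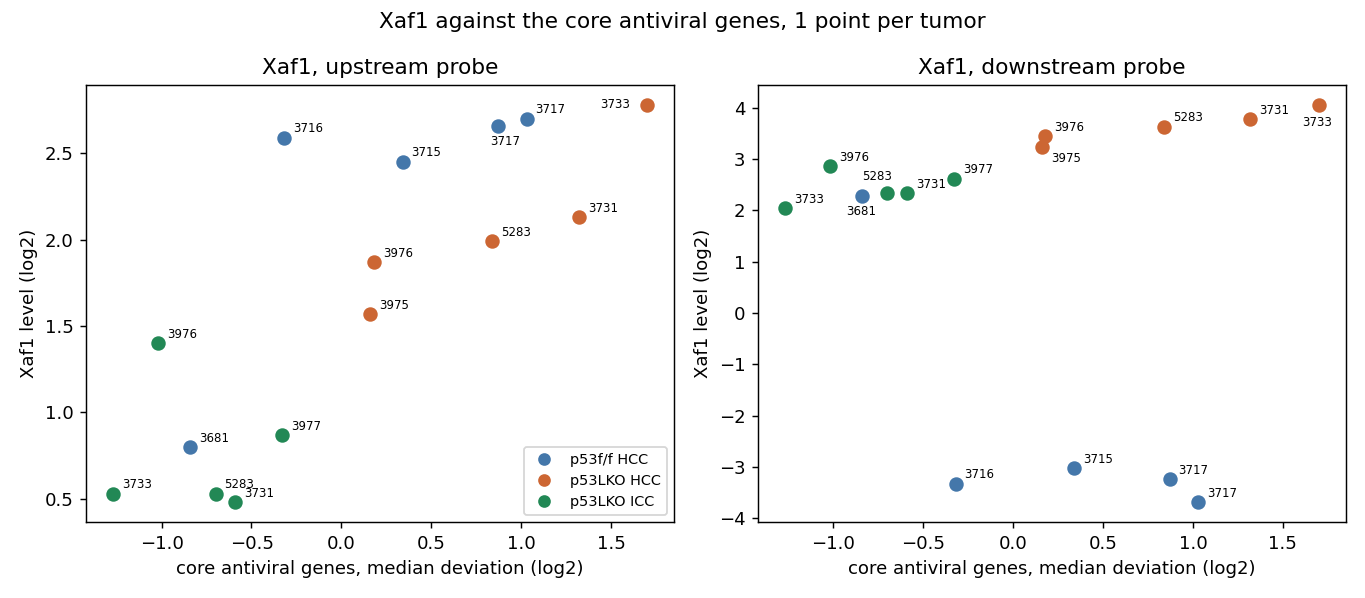
Xaf1 level of each tumor, as log2 relative to the 75th percentile of the array, against the median deviation of the 15 core antiviral genes from their medians over the tumors, on the left for the upstream and on the right for the downstream probe, with mice named beside the points. On the left the 5 ICC and the p53f/f HCC of mouse 3681 lie low on both axes; on the right the other 4 p53f/f HCC lie apart, between -3.69 and -3.02.

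Over the 15 tumors, the 5 genes outside the list with a pattern most like that of the upstream probe, of 17340 compared, were Blvrb, Abca8a, Asph, Nqo1 and Kif13b, with Pearson's r of 0.861 to 0.867. Blvrb reduces biliverdin, Abca8a is a lipid transporter of the ABC family, Asph is an aspartyl hydroxylase, Nqo1 is a quinone reductase and Kif13b is a kinesin. Nqo1, for example, was at -0.23 in the tumor of mouse 3681, at 1.36 to 2.76 in the other p53f/f HCC, at 0.28 to 1.86 in p53LKO HCC and at -2.86 to -1.09 in ICC. For the downstream probe they were Csk, Prim2, Bcl6, Sult2a6 and Nup35 (r of 0.894 to 0.910), and the lists of the 2 probes had no gene in common. The tumors share genotype and type within a group, and the r values span the differences between groups.

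Genes of the pathway outside the list of members were counted as well, from a list of 63 of which 60 were tested in each comparison. Between the HCC groups 4 were higher (6.67%) and 2 lower (3.33%), beside 5.19% and 10.8% of all genes, with a median of 0.29. Higher were Il10rb, a chain of the interferon lambda and interleukin-10 receptors (1.24, adjusted p = 0.000994), the double-stranded RNA receptor Tlr3 (1.05), Apol9a (1.21) and Apol9b (1.09), and lower were Ifnk (-2.80), an interferon known from keratinocytes, and Slfn8 (-1.5). Il10rb lay at 0.48 to 0.83 in p53f/f HCC and at 1.19 to 2.16 in p53LKO HCC. The receptor chains Ifnar2 (0.86) and Ifngr2 (0.93) separated the groups under the fold limit. Ifng lay near background (-0.11, adjusted p = 0.897), and Ifnb1 was not well above background on any array.

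In ICC against p53LKO HCC, 5 of these 60 genes were higher (8.33%) and 11 lower (18.3%), beside 13.2% and 15.2% of all genes, with a median of -0.35. The type I receptor chain Ifnar2 lay at 5.32, 5.77, 5.0, 5.13 and 5.53 in p53LKO HCC and at 3.42, 3.36, 3.73, 3.50 and 3.05 in ICC (-1.94, SE 0.19, adjusted p = 7.25e-05). It was lower than in p53f/f HCC too (-1.08, adjusted p = 0.00204). Of the 6 receptors tested, 1 other passed, the interferon gamma receptor chain Ifngr1, which was higher in ICC at 4.29 to 4.86 against 3.02 to 4.04 (adjusted p = 0.00424). The signalling inhibitors Socs1 (1.81, adjusted p = 0.000763) and Socs3 (1.65, adjusted p = 0.000372) were higher in ICC, with Socs3 at 3.53 to 3.91 against 1.5 to 2.83. Of 11 sensors and adaptors 3 were lower and 2 higher. Lower were the DNA receptor Tlr9 (-1.82, adjusted p = 5.35e-05), Mavs, the adaptor of the RNA sensors (-1.44, adjusted p = 0.000179), and Ikbke (-1.17, adjusted p = 0.00314). Higher were Tmem173 (STING), the adaptor of the DNA sensor (2.89, adjusted p = 5.66e-05), and the DNA sensor Aim2. Aim2 was well above background on 1 p53LKO HCC array and 4 ICC arrays. Of 30 other interferon-induced genes 7 were lower (23.3%) and 23 were not called, with Apol9b at -2.96, Apol9a at -2.91, Rtp4 at -2.03, Cxcl10 at -1.64 and the immunoproteasome subunit Psmb8 at -1.39 among the 7. The kinases Jak1 (-0.07) and Jak2 (0.30) did not pass, and Tyk2 (-0.83, adjusted p = 0.00576) separated the tumor types under the fold limit.

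Of the members lower in ICC, 18 had a promoter in the RefSeq table and 12 of these (66.7%) held the response element shown above. Of those not called 11 of 32 did (34.4%), and of those higher 2 of 4. These shares describe the lists and were not tested. Oas3, Isg15 and Ifit1, printed above, were among the 12.

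ICC and p53f/f HCC differ in both genotype and tumor type, and their values are given to complete the 3 groups. Of 76 members 4 were higher and 16 lower (21.1%), beside 10.9% and 11.9% of all 17703 genes (22.8% in all), and the median was -0.52 against -0.17. The Oas genes that were higher in p53LKO HCC did not pass here, with -0.51 for Oas1c and 0.93 for Oasl2, while Oas3 was not well above background on any ICC array. Irf4 (2.16), Stat4 (1.64) and Irf8 (1.12) were higher in ICC than in p53f/f HCC as well, and Ifi205 (1.41) of the p200 family was the other, with a probe that also matches Ifi211 in RefSeq. With normexp background correction the calls of Irf4 (0.56) and Stat4 were lost, and that of Stat4 was also lost with the slide as a block. Among the members lower without overlap were Ifi27l2b (-3.03), Iigp1 (-2.32), Cmpk2 (-2.04), Ifi27 (-1.70) and Irgm2 (-1.61). With spike-in scaling Irgm2 (-0.86), Ifi27 (-0.94) and Cmpk2 did not pass, while Ifi27l2b and Iigp1 did. Of the 20 calls of this comparison, 6 were made again with spike-in scaling and 11 with the slide as a block. Scaled to spike-in probes the count of members turned to 15 higher and 2 lower, beside 27.5% and 3.06% of all genes, with the median of all genes moving from -0.17 to 0.58 and that of the members from -0.52 to 0.23.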

How the data were processed

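Each tumor's total RNA was hybridised to 1 single-colour Agilent mouse expression array with probe positions on mm9. The authors scanned the arrays and deposited the intensity of every spot as processed by Feature Extraction version 10.7.3.1, which subtracts background, with a flag for spots well above it. They also deposited a table of log2 values, which the data showed to be the same signals after the 75th percentile shift, centred per probe on medians of different sets of arrays, so it served only as an alternative. Here the log2 intensities of a probe's spots were averaged and put relative to the 75th percentile of their array. A probe entered a test if 3 or more arrays of either group had it well above background. Tests were made with limma 3.58.1 in R 4.3.3, with Benjamini-Hochberg adjustment over all probes tested and calls needed an adjusted p below 0.05 and more than a 2-fold change. Every adjusted p in the text is from limma. Where a gene had several probes, the one brightest on average stands for it. The members and gene lists were chosen with earlier results of these data known. Named with values were a list of well-known members, the 5 with the most positive and the 5 with the most negative change among calls without overlap in each comparison, and the 5 genes most like Xaf1; other genes were named after their values were seen. Tumors are the replicates, and where 2 came from 1 mouse the p-values do not count that. Same-mouse tumors of the 2 types pair by animal, although the deviations of the 4 pairs from their group means correlated at only -0.143 to 0.066. On simulated data 56% of 100 probes changed by 1.5 on the log2 scale and 89% of 100 changed by 3 were recovered between the HCC groups, over 36016 probes. For ICC these shares were 64% and 84% against p53LKO HCC and 47% and 89% against p53f/f HCC. The simulation changed a far smaller share of probes than passed in the tumors, so its rates need not hold for these tests. The number of arrays limits the precision, and 0 spots of the members were saturated. 1 member is not reported here by name.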

Additional observations from a re-analysis of the deposited data

Results flagged for a closer look

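In 4 cases 1 tumor lay far from the other 4 of its group, by the gap to its nearest neighbour over the range of the group. With 129 groups of values examined, chance alone would give about 6.4 such cases. The p53f/f HCC of mouse 3681 was apart with both Xaf1 probes, in opposite directions, with 0.80 against 2.45 to 2.70 for the upstream probe and 2.29 against -3.69 to -3.02 for the downstream probe. For Gbp6, the p53f/f HCC of mouse 3716 was at 2.64 against 3.53 to 3.62, and the p53LKO HCC of mouse 3733 at 1.40 against 0.09 to 0.42.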

How the results depend on the processing

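Between the HCC groups, scaling to spike-in probes gave 34 higher members in place of 4, beside 35% of all genes, with the median of all genes moving from 0.06 to 0.80 and that of the members from 0.27 to 1.01, and dropping the fold limit gave 9, beside 13.8% of all genes. Xaf1 turned from -0.17 to 0.57 (adjusted p = 0.265) with the spike-in probes and to 5.83 with the downstream probe, and the other probe of Gbp6 gave 0.52. Leaving out 1 tumor gave 5 to 6 higher and 2 to 4 lower members (4 without the p53f/f HCC of mouse 3716) and Xaf1 between -0.53 and -0.05. In ICC against p53LKO HCC, normexp background correction, the slide row as a block and the lower slide rows alone each left 2 higher members in place of 5, beside 9.16%, 10.4% and 9.59% of all genes, and the methods' t-test left 3, beside 10.6%. Blocking on the mouse left 3 higher and 30 lower members, beside 11% and 13.8% of all genes, with Xaf1 at -1.46 (adjusted p = 0.0249). Xaf1 was -0.94 (adjusted p = 0.0128) with the 75th percentile over probes well above background on all arrays, under the fold limit, and the other Gbp6 probe gave -1.65. Leaving out 1 tumor gave 3 to 4 higher members (3 without either tumor of mouse 3976 or the HCC of mouse 3975), 24 to 32 lower members and Xaf1 between -1.47 and -1.13. In ICC against p53f/f HCC, higher members numbered 2 with normexp, 2 with the slide as a block, 7 with no filter on dim probes and 15 with spike-in scaling, against 4, beside 7.86%, 6.85%, 24.9% and 27.5% of all genes. Lower members numbered 10 with the slide as a block and 2 with spike-in scaling, against 16, beside 5.7% and 3.06% of all genes. Xaf1 was -0.73 (adjusted p = 0.235) with the spike-in probes and 4.64 with the downstream probe. Leaving out 1 tumor gave 3 to 4 higher and 11 to 22 lower members and Xaf1 between -1.84 and -1.36. The cause of these shifts was not tested. The mouse as a random block could not be fitted with 1 pair of tumors from 1 p53f/f mouse; averaging them gave 6 higher and 2 lower members between the HCC groups. The slide row could not be used as a block for ICC against p53f/f HCC, since the groups lie in different rows.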
